A study of Saccharomyces cerevisiae with 8 samples.

Results

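The genes described here are 47 factors that build the yeast ribosome, taken as a fixed list of gene identifiers, of 5797 genes in the RNA-seq tables. The tables hold *Saccharomyces cerevisiae* expression in 5 diploid parents and 3 hybrids, with 1 culture and 1 library each, grown to mid-log phase in rich YPD medium at 30 °C. The parents were MATa/@ diploids that the paper calls homozygous, namely RM11-1 and BC187 from the wine/European population and UWOPS05.227.2, UWOPS05.217.3 and UWOPS03.461.4 from the Malaysian one. Every parent was HO except RM11-1, a cross of RM11-1a and RM11-1b that is labelled ura3 ho::kanMX. For RM11-1 the study's strain list also gives lys2/LYS2 leu2/LEU2, which is heterozygous. Of the hybrids, which GEO's labels all give as MATa/@ HO (the study's strain list gives HO/hoΔ::kanMX for YHL058), UWOPS03.461.4 is the Malaysian parent of YHL058 (crossed to RM11-1b) and of YHL063 (crossed to BC187), and YHL065 is a cross of BC187 with UWOPS05.217.3. In the hybrids, only reads over sites that differ between the parents were counted, once for the Malaysian and once for the wine/European allele. UWOPS05.227.2 is a parent of none of the hybrids.

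A yeast ribosome is made in the nucleolus from a long precursor RNA transcribed by RNA polymerase I. Guide RNA particles of the box C/D and box H/ACA kinds methylate and pseudouridylate this RNA, the small-subunit processome folds and cleaves its 40S part, other factors mature the 60S part, and DEAD-box helicases remodel the particles. In laboratory yeast the genes for these factors form one of the largest co-regulated groups of the genome, which is expressed with growth and shut off under stress. Many carry PAC and RRPE motifs in their promoters, to which the repressors Dot6 and Tod6 (PAC) and Stb3 (RRPE) bind.

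By role, the genes were 3 core proteins of box C/D particles, 3 of box H/ACA particles, 19 factors of the small-subunit processome and the 40S subunit, 12 factors of the 60S subunit, 8 DEAD-box helicases and 2 other nucleolar RNA-binding proteins. All 47 had a mean value of at least 10 in both tables and were tested. Their coding regions were 471 to 7482 bases long with a median of 1572 bases, beside 1227 for all genes, and none overlapped another coding gene or held a 100-base window found elsewhere in the reference. Their median GC content was 37.9%, beside 39.8% for all genes.

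The promoters are shown first, because the same short motifs recur in nearly all of the genes. In the 250 bases before the start codon in the RefSeq S288C assembly R64, the PAC core GATGAG was found on either strand in 43 of 47 genes (91.5%), beside 17.0% of 5786 coding genes. The RRPE core AAAATTTT, which reads the same on both strands, was found in 36 (76.6%), beside 8.83%. Both were present in 33 genes (70.2%, beside 4.22%) and at least 1 of them in 46 (97.9%, beside 21.6%). Neither motif contains the other, and a match is a description of the sequence and not of binding. These are the reference sequence of S288C, not of the strains that were measured. The promoters below belong to 3 genes that were lower and 1 that was higher in the Malaysian parents, and to the only gene with neither motif. Each runs from 5′ to 3′ in the direction of its gene and ends at the base before the start codon, with capitals marking PAC (GATGAG or its reverse complement CTCATC) and RRPE.
EBP2 (YKL172W, chrXI:125509-125758, + strand): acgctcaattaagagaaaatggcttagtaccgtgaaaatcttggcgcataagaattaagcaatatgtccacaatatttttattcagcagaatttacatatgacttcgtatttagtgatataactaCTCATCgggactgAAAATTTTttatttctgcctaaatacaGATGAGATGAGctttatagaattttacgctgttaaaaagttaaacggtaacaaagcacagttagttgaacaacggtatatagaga
NOP16 (YER002W, chrV:156553-156802, + strand): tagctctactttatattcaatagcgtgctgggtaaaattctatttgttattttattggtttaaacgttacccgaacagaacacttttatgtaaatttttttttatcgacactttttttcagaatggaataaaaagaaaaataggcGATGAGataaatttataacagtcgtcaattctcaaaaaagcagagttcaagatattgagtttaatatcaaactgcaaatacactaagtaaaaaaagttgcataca
NOP53 (YPL146C, chrXVI:277530-277779, - strand): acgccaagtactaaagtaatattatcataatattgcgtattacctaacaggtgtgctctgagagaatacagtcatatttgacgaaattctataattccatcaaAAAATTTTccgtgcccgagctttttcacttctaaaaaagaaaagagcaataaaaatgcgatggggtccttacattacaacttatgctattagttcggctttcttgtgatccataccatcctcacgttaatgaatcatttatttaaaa
UTP13 (YLR222C, chrXII:581772-582021, - strand): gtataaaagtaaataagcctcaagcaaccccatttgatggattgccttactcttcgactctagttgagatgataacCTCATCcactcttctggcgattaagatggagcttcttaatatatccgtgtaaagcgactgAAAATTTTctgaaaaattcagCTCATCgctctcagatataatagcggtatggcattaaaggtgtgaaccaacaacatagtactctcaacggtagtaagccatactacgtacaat
UTP22 (YGR090W, chrVII:662108-662357, + strand): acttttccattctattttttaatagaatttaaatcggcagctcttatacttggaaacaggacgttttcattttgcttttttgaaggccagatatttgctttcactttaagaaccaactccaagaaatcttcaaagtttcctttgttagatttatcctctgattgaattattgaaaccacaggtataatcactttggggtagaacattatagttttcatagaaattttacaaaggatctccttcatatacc

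The *EBP2* promoter held 3 PAC matches, a pair of them overlapping, and 1 RRPE match between them, at −112 from the start codon. *NOP16* held a single PAC at −105, and *NOP53* a single RRPE at −147. *UTP13*, which moved opposite to these 3 genes in the parents, held both motifs, with PAC at −174 and −93 and RRPE at −114. *UTP22* held neither. Its value was also higher in every Malaysian parent than in either wine/European parent, without passing the test. Beyond *UTP22*, the genes without PAC in the window were *NOP53*, *UTP15* and *UTP4*. The PAC match nearest the start codon lay between −150 and −80 in 36 of the 43 genes with PAC, and 18 genes held several. Other matches reached as far as −229 (*UTP8*), and positions were not counted for genes outside the 47.

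**Figure D1:**
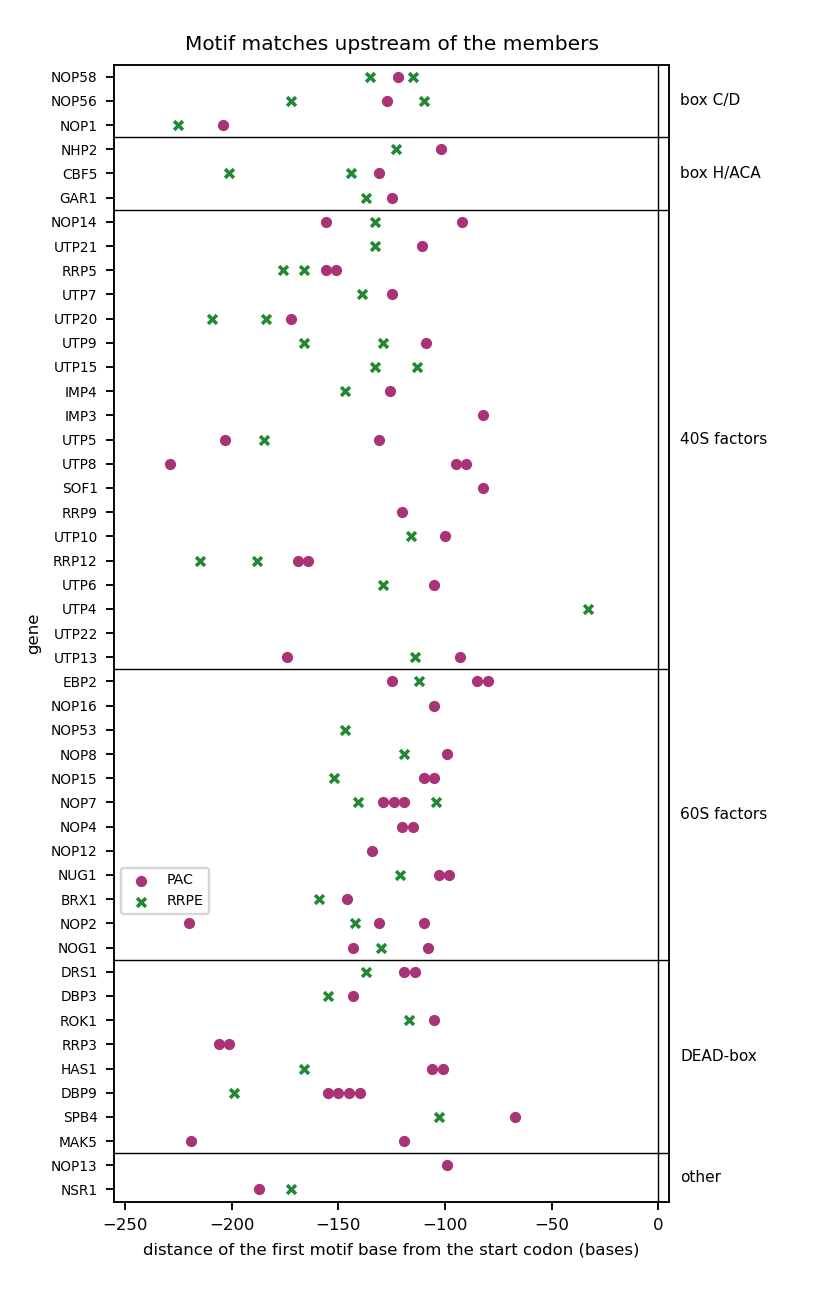
Positions of PAC (circles) and RRPE (crosses) matches upstream of the 47 genes, in bases from the start codon (x axis), with 1 row per gene grouped by role. Most PAC matches nearest the start codon lie between −150 and −80 (36 genes), and *UTP22* has no match of either kind.

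The first comparison asked which of these genes differed in expression between the Malaysian and wine/European populations. Of 47 genes, 6 were lower and 1 was higher in the Malaysian parents at an adjusted *P* under 0.05 (limma on log2(value + 1), Benjamini-Hochberg over 5792 genes). The lower genes were *EBP2*, *NOP16*, *NOP53* and *NOP15*, all factors of the 60S subunit, the DEAD-box helicase *DBP3*, and *NOP13*, which encodes a nucleolar RNA-binding protein. The higher gene was *UTP13*, a WD-repeat protein of the UTP-B complex in the small-subunit processome. Over all genes, 10.9% were past the threshold, 5.82% lower and 5.06% higher, so that 7 calls among 47 genes were close to the background in number, while 6 of them were in one direction. The median log2 fold change (Malaysian over wine/European) was −0.22, beside 0.03 over all genes, and 35 of the 47 values were below 0 (74.5%), beside 46.8% of all genes. In 16 genes (34.0%) every Malaysian value lay below both wine/European values, beside 22.4% of all genes. In 3 (6.38%; *UTP13*, *UTP22* and *NOG1*), every Malaysian value lay above both, beside 26.5%.

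The values are normalized read counts that the authors scaled to a common upper quartile, so they are relative expression levels. They do not retain the depth of a library, and a change in the total amount of RNA per cell would not show in them. The strains of a population served as its replicates, and the spread within a group therefore includes differences between strains as well as between cultures. In checks of the labels, *HO* was at 0 in RM11-1 (ho::kanMX) and at 51 to 127 in the other parents. Of 10 mating genes that a diploid keeps low, not all were low in the 5 parents. *STE6* was at 37 to 91 and *STE3* at 58 to 107, while *MFA2* was at 1546 to 1670 and *STE18*, the highest, at 3783 to 4893. *FAR1* was at 1172 to 4742 and passed the test between populations, lower in the Malaysian parents (−1.51, limma adjusted *P* = 0.0376). *URA3* was at 101 in RM11-1 and 21 to 32 elsewhere, so its value was not lower under the ura3 label. All these values lay below the upper quartile of 6442, with *STE18* (up to 4893) and *FAR1* (up to 4742) the nearest to it. The source of the reads was not tested.

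**Figure D2:**
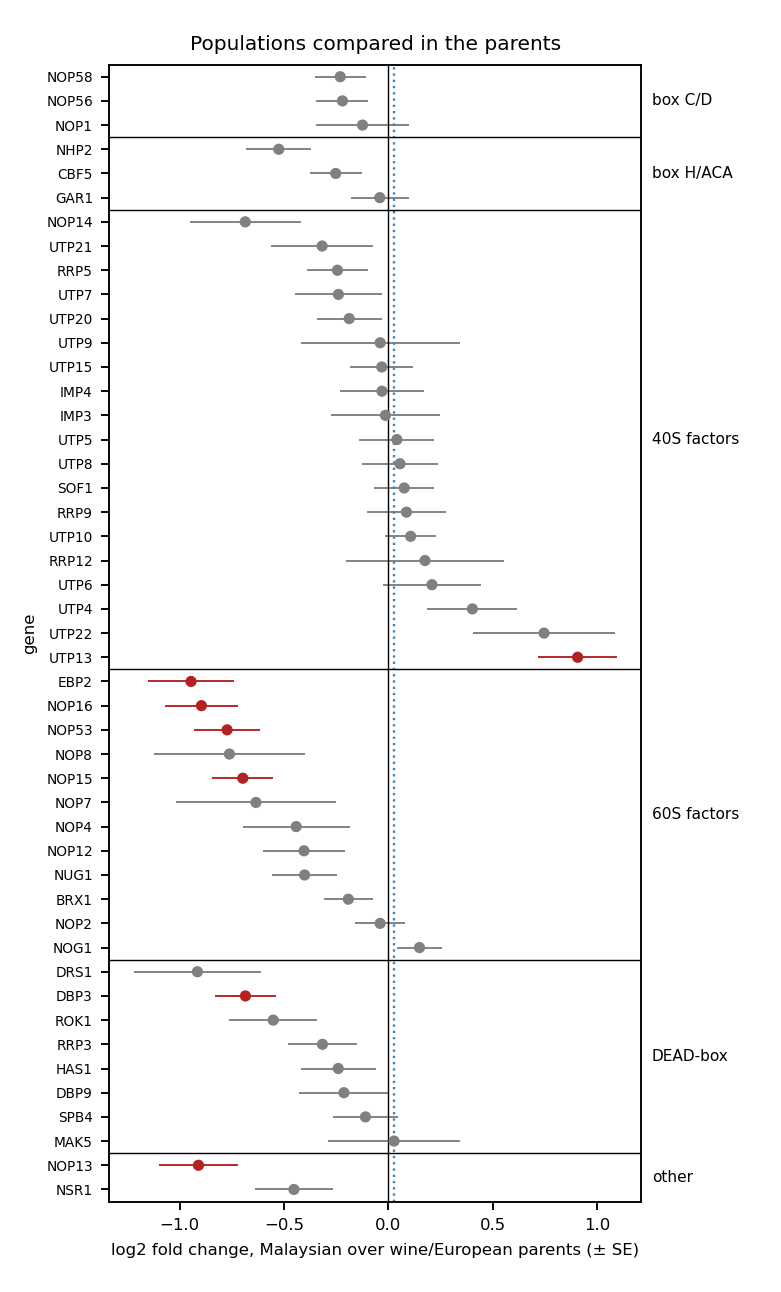
Log2 fold change of the 47 genes, Malaysian over wine/European parents (points), with its standard error (bars), grouped by role. Red marks the 7 genes past the threshold, 6 to the left of 0 and *UTP13* (0.91) to the right, and the dotted line is the median of all genes, 0.03.

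The 60S factors held 4 of the 6 falls. Of the 12, 11 had a log2 fold change below 0, and their median was −0.54. *EBP2* (YKL172W), needed for processing of the 27S precursor, had a value of 10001 in UWOPS03.461.4, 11377 in UWOPS05.217.3 and 10448 in UWOPS05.227.2, and of 25566 in BC187 and 16285 in RM11-1. The groups did not overlap, and most of the spread lay between the wine/European strains. *EBP2* fell 1.93-fold (log2 fold change −0.95, SE 0.21, limma adjusted *P* = 0.0455). *NOP16* (YER002W), a constituent of pre-60S particles, was at 4199, 5046 and 4132 in the Malaysian parents (in the same order throughout) and at 9627 and 7092 in BC187 and RM11-1. It fell 1.86-fold (−0.90, SE 0.17, adjusted *P* = 0.0347), the lowest adjusted *P* among the 47 genes. *NOP53* (YPL146C), which brings the exosome to the pre-60S particle, was at 15371, 17014 and 16641 against 32402 and 24017. *NOP53* fell 1.71-fold (−0.77, SE 0.16, adjusted *P* = 0.0382), with the Malaysian values close together. *NOP15* (YNL110C), an RNA-binding protein of early pre-60S particles, was at 7305, 8796 and 7563 against 14208 and 11447, and fell 1.62-fold (−0.70, SE 0.15, adjusted *P* = 0.0413).

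Other 60S factors had folds of similar size without passing the test. *NOP7* (YGR103W), the yeast pescadillo, was at 34165, 74259 and 40812 in the Malaysian parents and 91779 and 57920 in BC187 and RM11-1 (log2 fold change −0.63, adjusted *P* = 0.318). Its value in UWOPS05.217.3 was above that in RM11-1, so the groups overlapped. *NOP8* (YOL144W), a 60S factor that binds Nip7, was at 3090, 3322 and 3063 against 8314 in BC187 and 3445 in RM11-1 (−0.76, adjusted *P* = 0.222). The groups of *NOP8* did not overlap, but RM11-1 was close to the Malaysian strains and BC187 stood alone. *NOP2* (YNL061W), a methyltransferase of the large rRNA, was at −0.04 (adjusted *P* = 0.85). *NOG1* (YPL093W), a nucleolar GTPase, was the only 60S factor above 0, at 44968, 48737 and 48700 against 42960 and 42624 (0.15, adjusted *P* = 0.401). The remaining 4 (*NOP4*, *NOP12*, *NUG1* and *BRX1*) lay between −0.44 and −0.19 on the same scale, none past the test.

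Of the DEAD-box helicases, 7 of 8 were below 0 with a median of −0.28. *DBP3* (YGL078C), a helicase of early 60S processing, was at 6709, 8916 and 7733 in the Malaysian parents and at 12884 and 12004 in the wine/European parents. *DBP3* fell 1.61-fold (−0.69, SE 0.15, adjusted *P* = 0.0436), and here the wine/European strains were alike. *DRS1* (YLL008W), another 60S helicase, was at 7109, 13700 and 8018 against 19540 and 15434. Its groups did not overlap either and its fold change was larger (−0.92), but the high value in UWOPS05.217.3 widened the spread (SE 0.31, adjusted *P* = 0.118). *ROK1* (YGL171W), a helicase of the 40S pathway, was at 3947, 5215 and 3760 against 7369 and 5297 (−0.55, adjusted *P* = 0.151). *MAK5* (YBR142W), the only helicase above 0, was at 8422, 13031 and 9021 against 13282 and 7206 (0.03, adjusted *P* = 0.963), where the highest and the lowest value were both wine/European. *DBP9*, *SPB4*, *HAS1* and *RRP3* lay between −0.32 and −0.11 and overlapped between the groups.

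The small-subunit factors split about evenly around 0, with 9 of 19 below it and a median of 0.04. *UTP13* (YLR222C) was at 20022, 23576 and 22154 in the Malaysian parents and at 14119 and 9643 in BC187 and RM11-1. It rose 1.87-fold (0.91, SE 0.19, adjusted *P* = 0.0406), with no overlap. *UTP22* (YGR090W), a UTP-C protein, was at 14090, 29665 and 15051 against 11285 and 10746 (0.75, SE 0.34, adjusted *P* = 0.206). All its Malaysian values were above the wine/European ones, but UWOPS05.217.3 was far above the other Malaysian strains. *UTP6* and *UTP21*, which like *UTP13* encode UTP-B proteins, were at 0.21 (adjusted *P* = 0.593) and −0.32 (adjusted *P* = 0.424). *NOP14* (YDL148C), which acts in the processome and nuclear export of the 40S subunit, had the lowest fold change of the group, with 14126, 22464 and 13350 against 29672 and 22836 (−0.69, adjusted *P* = 0.154). Its groups were separated only by the gap between UWOPS05.217.3 and RM11-1. *UTP10* (YJL109C), a large HEAT-repeat protein of UTP-A, varied least of the 19, at 59466, 69036 and 64519 against 58932 and 60406 (0.11, adjusted *P* = 0.601). The other 13 lay between −0.24 and 0.40, and none passed the test.

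The core proteins of the guide RNA particles were all below 0, and none was past the test. Per kilobase of coding sequence, *NOP1* (YDL014W), the fibrillarin methyltransferase, had the highest mean level over the parents of the 47 genes, 91708.5, and *SPB4* the lowest, 2576. *NOP1* itself was at 86758, 92725 and 79157 in the Malaysian parents and at 118069 and 74497 in BC187 and RM11-1 (−0.12, adjusted *P* = 0.739), so its highest and lowest values were again both wine/European. *NOP56* and *NOP58*, the other box C/D core proteins, did not overlap between the groups but differed little, by −0.22 and −0.23 (adjusted *P* = 0.287 and 0.259). Of the box H/ACA proteins, *NHP2* (YDL208W) came closest to the threshold, at 13377, 16472 and 14792 against 24012 and 18968 (−0.53, SE 0.16, adjusted *P* = 0.0907). *CBF5* (YLR175W), the pseudouridine synthase, was at 38454, 40531 and 40067 against 51396 and 43463 (−0.25, adjusted *P* = 0.233). *GAR1* was at −0.04 (adjusted *P* = 0.862). Of the remaining nucleolar proteins, *NOP13* (YNL175C) was at 7229, 7871 and 7364 against 17222 and 11481, without overlap. *NOP13* fell 1.88-fold (−0.91, SE 0.19, adjusted *P* = 0.0391). *NSR1* (YGR159C), the yeast nucleolin, was at 53605, 74891 and 58834 against 91402 and 78320 (−0.45, adjusted *P* = 0.169), with UWOPS05.217.3 close to RM11-1.

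All 7 calls had an adjusted *P* between 0.0347 and 0.0455 and depended on which strains and settings were used. With a median-ratio rescaling 3 genes passed (*NOP13*, *NOP16* and *NOP53*), and without the mean-variance trend 2 did (*NOP16* and *NOP53*). Leaving out UWOPS05.217.3 gave 4 genes, of which *NOP16* and *DBP3* were among the 7. Leaving out BC187 gave 3 (*EBP2*, *NOP13* and *UTP13*), and leaving out RM11-1 gave 8, with all of the 7 but *DBP3* among them. Without UWOPS03.461.4, or without UWOPS05.227.2, none passed, and the calls over all genes fell from 630 to 107 and 112. *EBP2* was at −0.62 without BC187. The median of the 47 genes was −0.08 without BC187, with 25 genes below 0, and −0.40 without RM11-1, with 42 below 0.

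The strains of a population did not behave alike, and the same strains stood out in most of the 47 genes. BC187 had the highest value in 34 of them (72.3%), beside 22.0% of all genes, and UWOPS05.217.3 in 12 (25.5%), beside 13.9%. RM11-1 was highest only in *UTP20*. UWOPS03.461.4 had the lowest value in 25 genes (53.2%), beside 11.8% of all genes, RM11-1 in 13 and UWOPS05.227.2 in 7. BC187 exceeded RM11-1 in 45 of 47 genes (95.7%), beside 40.8% of all genes, with a median difference of 0.34 on the log2 scale (1.27-fold), beside −0.08 over all genes. UWOPS05.217.3 exceeded the mean of the other Malaysian parents in 45 genes too (95.7%, beside 39.4%), by a median of 0.28 (1.21-fold), beside −0.06. These are differences between single libraries and carry no test.

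**Figure D3:**
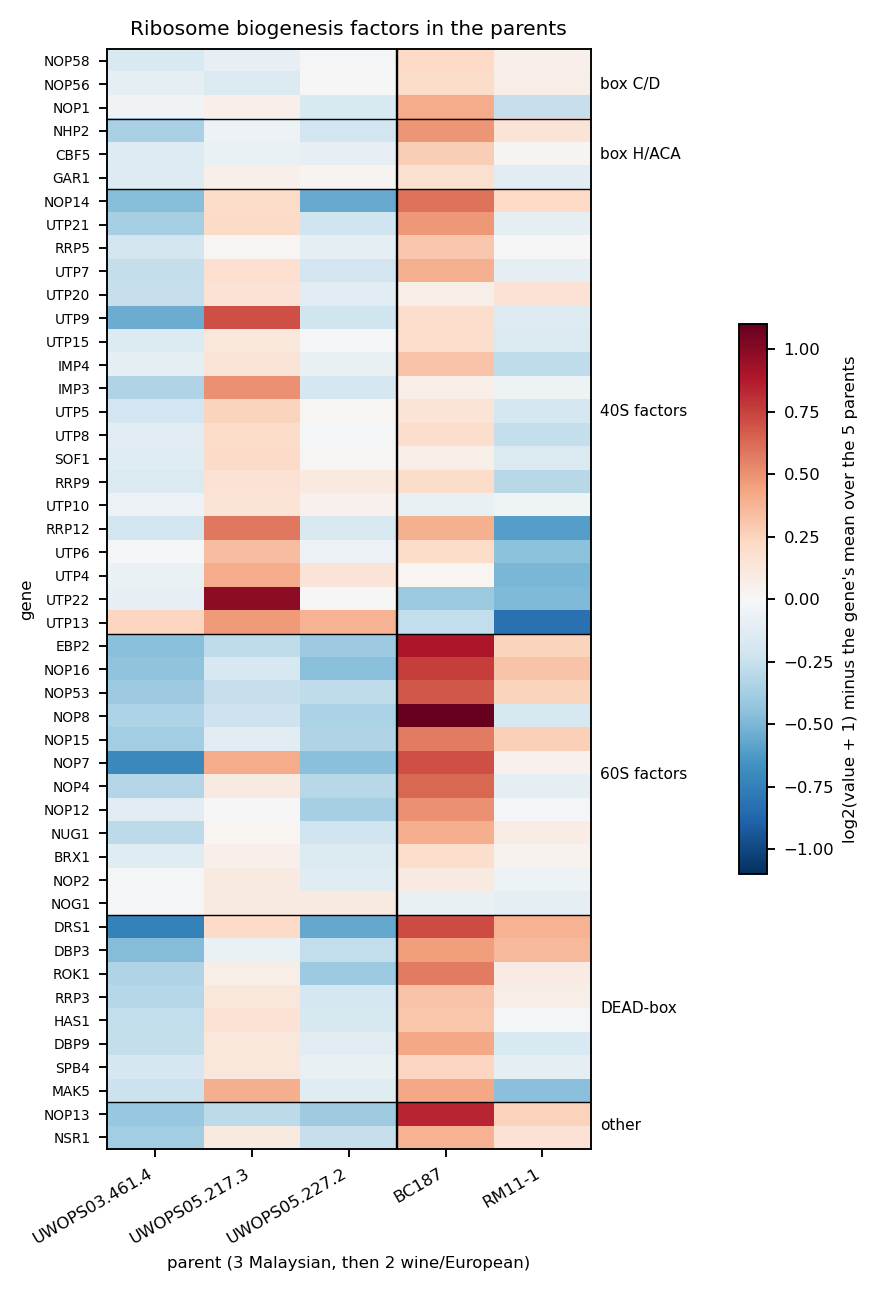
Log2(value + 1) of the 47 genes in each parent minus the gene's mean over the 5 parents (colour), with genes grouped by role and the Malaysian parents left of the line. The BC187 column is red in most rows (highest in 34 genes), UWOPS05.217.3 is red in most 40S factors, and UWOPS03.461.4 is mostly blue (lowest in 25).

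The size of the population difference therefore depended on the pair of strains. The median of the 47 genes was lowest for UWOPS03.461.4 against BC187 (−0.58) and UWOPS05.227.2 against BC187 (−0.48). It was −0.20 for UWOPS05.217.3 against BC187, −0.17 and −0.11 for UWOPS03.461.4 and UWOPS05.227.2 against RM11-1, and 0.18 for UWOPS05.217.3 against RM11-1. The roles took different parts in this. BC187 was the highest strain for all 8 helicases, all 6 core proteins of the guide RNA particles and 11 of 12 60S factors, but for 7 of 19 small-subunit factors, of which 11 were highest in UWOPS05.217.3 and 10 were lowest in RM11-1. *UTP9* (YHR196W), a UTP-A protein, was such a case, with 21825, 52018 and 27389 in the Malaysian parents and 36252 and 28817 in BC187 and RM11-1. Its value in UWOPS05.217.3 was the highest of the 5 and its lowest was also Malaysian.

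Summed over the 47 genes, these values made up 1.36% of all values in UWOPS03.461.4, 1.85% in UWOPS05.217.3 and 1.45% in UWOPS05.227.2, and 2.01% and 1.60% in BC187 and RM11-1. A separate list of 69 other ribosome biogenesis genes had the same order of strains, with 0.921%, 1.31% and 0.989% in the Malaysian parents and 1.55% and 1.12% in BC187 and RM11-1. In that list 54 genes were below 0 (78.3%, beside 46.8% of all genes) and the median was −0.24. Only 2 of the 69 passed the test, both lower, fewer for its size than the 5.82% lower of all genes (*UTP14*, −1.15, adjusted *P* = 0.0442, and *RRP15*, −0.80, adjusted *P* = 0.0384). BC187 was highest in 55 of the 69 (79.7%, beside 22.0%), and UWOPS05.217.3 exceeded the mean of the other Malaysian parents in 67 (97.1%, beside 39.4%). Of 15 genes for RNA polymerase I and its factors and 13 for the exosome, which trims the precursor, none passed the test (4 and 1 at an unadjusted *P* under 0.05), with medians of −0.04 and 0.06. None of 9 regulators of the group passed either (1 at an unadjusted *P* under 0.05), and their median was 0.03. Over all genes, 1765 of 5792 had an unadjusted *P* under 0.05 in limma. The PAC-binding repressors *TOD6* and *DOT6* were at −0.06 and 0.20 (adjusted *P* = 0.901 and 0.264). *STB3*, the RRPE-binding repressor, was at 1578, 1424 and 1550 in the Malaysian parents and 895 and 1157 in BC187 and RM11-1 (0.57, adjusted *P* = 0.0669). *SCH9*, a growth-controlling kinase, was at 4913, 10703 and 5736 against 9917 and 9370 (−0.52, adjusted *P* = 0.345), with UWOPS05.217.3 above the other Malaysian strains as in the biogenesis genes.

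Summed as a list, genes induced by stress ran the other way across the same strains. A list of 20 of them made up 0.368%, 0.142% and 0.353% of all values in the Malaysian parents (in the order used above), and 0.0464% and 0.0986% in BC187 and RM11-1. The order of the strains was the reverse of that for the 47 genes, except that UWOPS05.217.3 and RM11-1 changed places. BC187 was lowest in 19 of the 20 (95%, beside 35.2% of all genes). Not every gene followed the summed order: *HSP26* was lower in the Malaysian parents (−0.59), and RM11-1 was highest in 2 genes, *HSP26* and *HSP104*. UWOPS05.217.3 was the highest of the 5 parents in *SSA4* (924) and *SOD2* (24811). The median log2 fold change of the list was 1.76, and 5 of the 20 passed the test, all higher (*HSP12*, *SSA4*, *CTT1*, *GRE3* and *ALD3*), beside 5.06% of all genes. *HSP12*, a membrane-protecting heat shock protein, was at 12567, 8152 and 13554 against 2274 and 2699 (2.17, adjusted *P* = 0.00882). The part of this difference in the values of the 47 genes was not tested. Ribosomal protein genes, the other large growth-related group, did not follow that order, with shares of 16.2%, 17.3% and 17.2% in the Malaysian parents and 16.8% and 17.0% in BC187 and RM11-1. Like the 47 genes, however, more of them lay below 0 than above it, 91 of 137 genes (66.4%), with a median of −0.12, and in 44 (32.1%, beside 34.0% of the 47 genes and 22.4% of all genes) every Malaysian value lay below both wine/European values. Few of the 137 passed the test, 2 lower and 6 higher. Both counts were fewer for the size of the list than the 5.82% and 5.06% of all genes. The paper lists a ribosomal protein regulon as upregulated in Malaysian yeast, from a test over the genes past its own threshold.

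**Figure D4:**
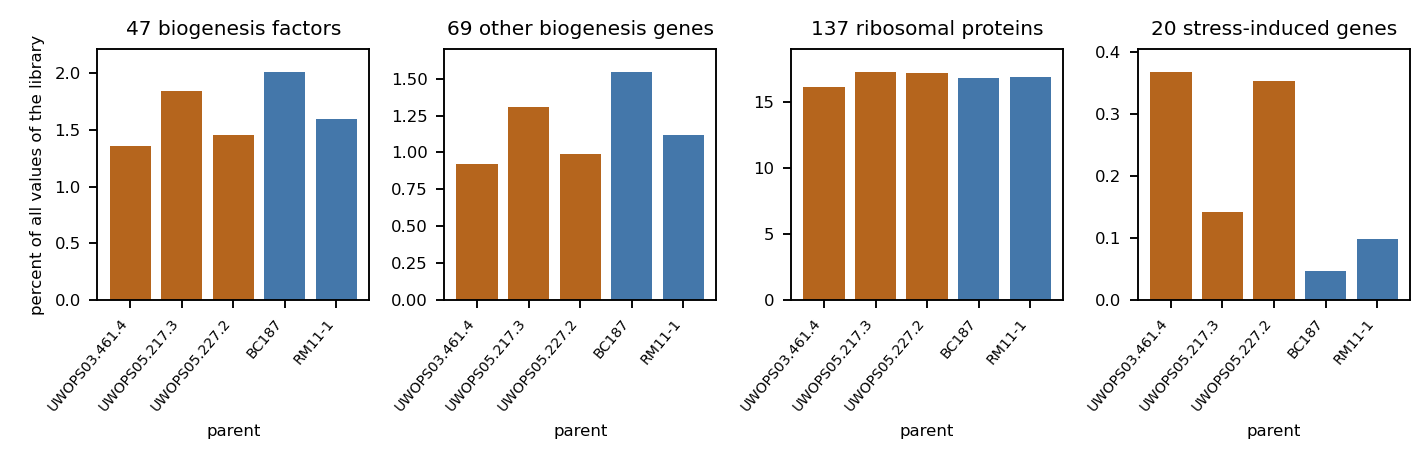
Summed values of 4 gene lists as a percent of all values in each parent (bars, 1 library each; each panel has its own axis from 0), Malaysian in brown and wine/European in blue. The 47 biogenesis factors reach 2.01% in BC187 and 1.36% in UWOPS03.461.4, the 69 other biogenesis genes have the same order of strains, and the stress-induced genes are lowest in BC187 (0.0464%).

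The second comparison asked whether the Malaysian and wine/European alleles of these genes were expressed differently in one cell, where both share the same regulators. Fitted without pairing, none of the 47 genes was past the threshold, beside 4.71% of 5738 genes. At an unadjusted *P* under 0.05 in limma there were 7 of the 47, beside 1008 of the 5738. Both alleles of a hybrid come from one library, and with the alleles paired by hybrid 12 genes passed, 7 with the Malaysian allele lower and 5 with it higher. Over all genes, 17.9% passed the paired fit, 8.87% lower and 9.01% higher. The lower alleles were those of *NOP12*, *NOP7*, *NOP16*, *NOP1*, *ROK1*, *SPB4* and *UTP21*, and the higher ones those of *UTP13*, *UTP6*, *CBF5*, *NOP2* and *MAK5*. The median log2 ratio (Malaysian over wine/European allele) was −0.01, beside 0.00 over all genes, with 24 genes below 0 and 23 above. The Malaysian allele was lower in all 3 hybrids in 18 genes (38.3%), beside 28.1% of all genes, and higher in all 3 in 14 (29.8%), beside 29.3%. Most differences were small, with 28 of 47 genes within 0.25 of 0 on the log2 scale. The value of an allele also depends on how many differing sites its reads cover. The paired fit uses only ratios within a hybrid, whereas the spread of the unpaired fit also includes differences between hybrids.

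**Figure D5:**
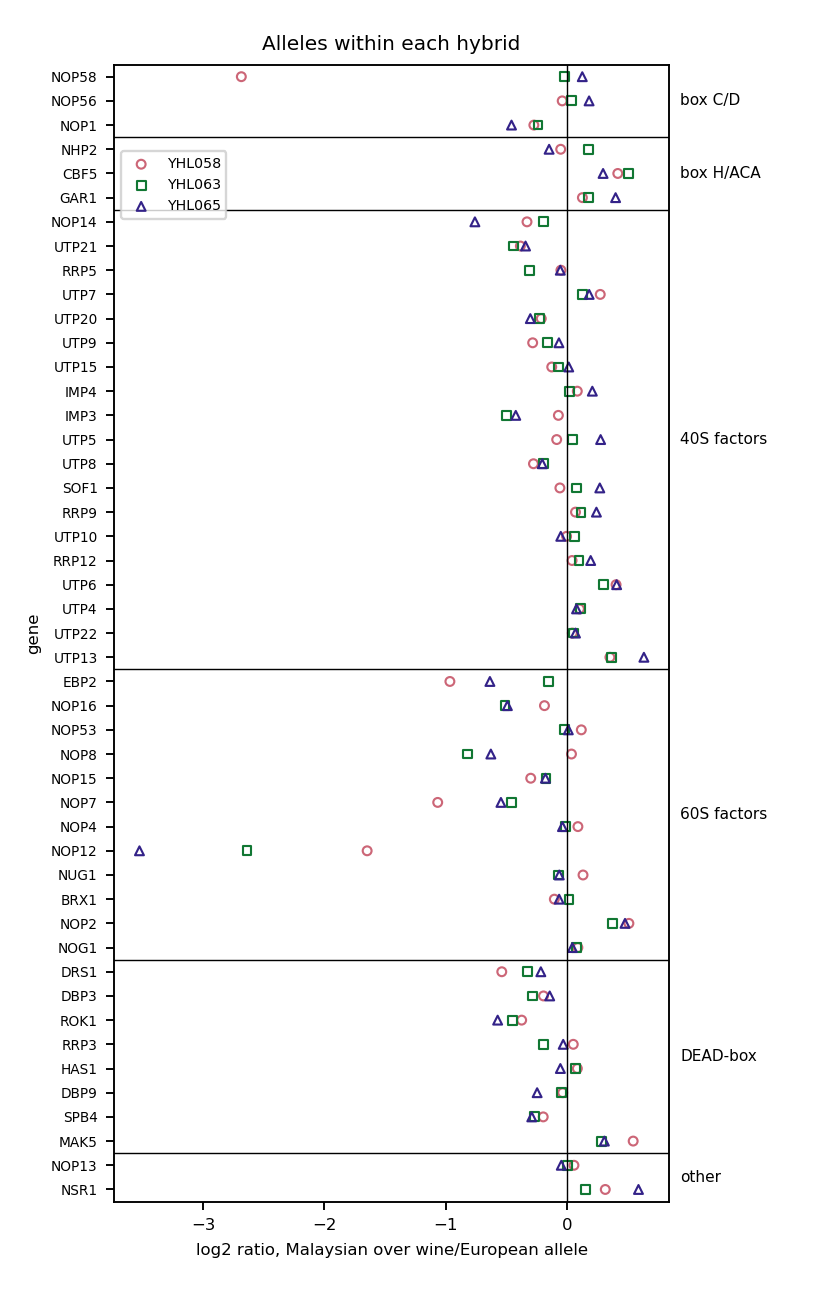
Log2 ratio of the Malaysian over the wine/European allele of the 47 genes in each hybrid (symbols), grouped by role in the order of the parental fold change. Most points lie near 0, *NOP12* lies between −3.52 and −1.65 in the 3 hybrids, and *NOP58* is far from 0 in YHL058 only (−2.68).

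*NOP12* (YOL041C), a 60S factor with RNA recognition motifs, had by far the lowest ratio of the 47. Its Malaysian allele was at 266, 72 and 29 and its wine/European allele at 835, 453 and 344 in YHL058, YHL063 and YHL065, so the Malaysian allele was lower in all 3, by a log2 ratio of −2.60 (SE 0.79, adjusted *P* = 0.148 unpaired and 0.0187 paired). Its mean over the allele columns was 333, the lowest of the 47 genes, so fewer reads that tell the alleles apart stand behind this ratio. In the paper's read statistics YHL065, where the ratio was lowest, had far fewer uniquely mapping reads than the other hybrids. In the parents *NOP12* was at −0.40 (adjusted *P* = 0.23). *NOP58* (YOR310C) had an allelic difference in 1 hybrid only: its Malaysian and wine/European alleles were at 1029 and 6617 in YHL058, but at 5152 and 5218 in YHL063 and at 6248 and 5722 in YHL065. YHL058 and YHL063 share their Malaysian parent. Over the 3 hybrids *NOP58* was at −0.86 (adjusted *P* = 0.38 paired), and without YHL058 at 0.05.

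Among the other genes with a lower Malaysian allele, *NOP7* was at 16237 against 33971 for the wine/European allele in YHL058, at 12252 against 16804 in YHL063 and at 14400 against 20992 in YHL065 (−0.69, paired adjusted *P* = 0.0415). The difference was largest in YHL058, the hybrid with RM11-1b. *NOP16* was at 3713 against 4221, 3466 against 4936 and 4193 against 5892 (−0.40, paired adjusted *P* = 0.0454), a smaller difference in YHL058 than in the hybrids with BC187. *ROK1* was at 2484 against 3217, 2036 against 2779 and 2826 against 4198 (−0.46, paired adjusted *P* = 0.0153). *UTP21* (YLR409C) differed by nearly the same ratio in each hybrid, −0.38, −0.44 and −0.34 (−0.39 in all, paired adjusted *P* = 0.0183). *NOP1* and the 60S helicase *SPB4* (YFL002C) were at −0.32 and −0.25 (paired adjusted *P* = 0.0494 and 0.0434). *EBP2*, which had the lowest fold change in the parents, was lower from the Malaysian allele in all 3 hybrids (3041 against 5935, 6275 against 6979 and 8052 against 12502), but with unequal ratios (−0.58, paired adjusted *P* = 0.0791).

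Among those with a higher Malaysian allele, *UTP13* was at 7094 against 5548 in YHL058, 5642 against 4382 in YHL063 and 8073 against 5199 in YHL065 (0.45, paired adjusted *P* = 0.0286), again with every Malaysian allele above its partner. *NOP2* was at 11366 against 7975, 9257 against 7127 and 8180 against 5868 (0.46, paired adjusted *P* = 0.0148), the lowest adjusted *P* of the 47 genes in this fit. *CBF5* was at 32512 against 24307, 28378 against 19925 and 40394 against 32849 (0.41, paired adjusted *P* = 0.0427). The Malaysian allele of *CBF5* was thus the higher one in each hybrid, while in the parents each Malaysian strain was below both wine/European ones. *UTP6* (YDR449C) and *MAK5* were at 0.37 and 0.38 (paired adjusted *P* = 0.0183 and 0.036). *NSR1* was higher from the Malaysian allele in all 3 hybrids too, at 23010 against 18479, 30321 against 27218 and 45769 against 30405, but was not past the paired test (0.35, adjusted *P* = 0.102).

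Set side by side, 2 of the 7 genes past the threshold in the parents also passed the paired allelic test with the same sign (28.6%, beside 47.2% of the 629 such genes of the whole table): *NOP16* (−0.90 in the parents and −0.40 between alleles) and *UTP13* (0.91 and 0.45). For 5 of the 7 (71.4%, beside 70.6%), the alleles had the parental sign in all 3 hybrids, with *EBP2* at −0.95 and −0.58, *NOP15* at −0.70 and −0.22 and *DBP3* at −0.69 and −0.21 beside those named. The other genes, *NOP13* and *NOP53*, were at 0.00 and 0.04 between alleles, against −0.91 and −0.77 in the parents. *NOP13* was at 3541 against 3401, 2706 against 2702 and 3662 against 3781 in the hybrids, so that neither allele was the higher one throughout. *NOP53* was at 6547 against 6029, 6609 against 6710 and 4992 against 4952. Of the 12 genes past the paired test, 10 had the same sign in the parents (83.3%, beside 84.1% of 1026 genes), the exceptions being *CBF5* and *NOP2*. The 10 include *MAK5* (0.03 in the parents), *SPB4* (−0.11), *NOP1* (−0.12) and *UTP6* (0.21), whose parental sign changed as a parent was left out. The tables of the parents and the hybrids were normalized separately, and no test was made between them.

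The promoters can be read beside these values. *NOP13* and *NOP16* each held a single PAC and no RRPE, at −99 and −105, and had nearly the same fold change in the parents (−0.91 and −0.90), but *NOP16* differed between alleles and *NOP13* was at 0.00. *UTP13* and *EBP2* both held several PAC matches and an RRPE at nearly the same distance (−114 and −112), and moved in opposite directions in the parents. No test was made of motifs against expression.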

How the data were processed

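RNA-seq libraries of 5 parents and 3 hybrids were analysed from 2 tables, 1 of the parents and 1 of the alleles. Per the paper's methods, the authors mapped reads with Bowtie (0.12.7 in the submitters' processing notes) to genomes amended with SNPs, kept unique matches without mismatches, summed reads per gene and normalized them with EDASeq (upper quartile and GC content). The S288C release they used is not given in the sources used here. The deposited values are whole numbers with the same upper quartile in every library of a table (6442 for the parents, 2010 for the alleles), and were treated as a score, the authors' normalized read count rounded, although a description of the supplementary tables calls them raw counts. Library depth is thus not retained in the values, column sums (63253487 to 67038479 in the parents) are not depths, and no counting interval is given. The paper's read statistics give YHL065 far fewer uniquely mapping reads than YHL058 or YHL063, and the fits treated the 3 hybrids alike. The deposited fold changes, means and *P* values of the authors' comparison were not used.

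A mean value of 10 or more was required, and genes were fitted with limma 3.58.1 (R 4.3.3; lmFit, eBayes with a trend) on log2(value + 1), which understates changes of low genes, with Benjamini-Hochberg adjustment over all genes tested. As in the study, strains and hybrids were the replicates. The hybrids share parents, UWOPS03.461.4 in YHL058 and YHL063 and BC187 in YHL063 and YHL065. They are therefore not independent samples of the alleles of a population. The alleles were also paired by hybrid: both come from one library, and their deviations from the allele means correlated within a hybrid (r = 0.669, 0.541 and 0.476 across genes, which are not independent). The code was tested on simulated data. Genes were named where past the threshold in either comparison, paired fit included, or where extreme in level, fold change or allelic ratio within a role. *NOP8*, *UTP9*, *UTP14*, *RRP15*, *STB3*, *SCH9* and the stress and label genes were outside this rule and chosen once their values were known. The 47 genes and the lists beside them were chosen with earlier results of these data known. Of 5797 identifiers, 5792 were found in RefSeq R64, from which promoters were read. The alternatives changed the pseudocount (0.5 or 10), the minimum mean (0 or 100), the scaling (median ratio or quantiles) or the trend (none), left out 1 library at a time, or paired the alleles.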

Additional observations from a re-analysis of the deposited data

Results flagged for a closer look

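For *CBF5* and *NSR1*, the parents and the alleles moved in opposite directions throughout. *CBF5* had a log2 ratio of 0.41 between alleles, with the Malaysian allele higher in all 3 hybrids, and a log2 fold change of −0.25 in the parents, where every Malaysian value was below both wine/European ones. *NSR1* had 0.35 between alleles and −0.45 in the parents, in the same manner. The difference between parents and hybrids was not tested for either gene, and neither passed the test in the parents.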

How the results depend on the processing

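Other pseudocounts and filters left 7 of the 47 genes past the threshold in the parents, and quantile normalization left 6. The number was 3 with median-ratio rescaling and 2 without the trend, and 0 to 8 as each parent was left out, where the median of the 47 genes stayed below 0 (−0.40 to −0.08). Over all genes, the calls in the parents were 107 to 1011 as each parent was left out. With 1 wine/European parent left, it was assumed to vary like the Malaysian ones. Between alleles, 0 of the 47 genes and 270 of all genes passed without pairing. Pairing by hybrid gave 12 and 1026. Leaving out each hybrid, again without pairing, gave 0 and 12 to 155. The paired fit was not repeated with a hybrid left out or under the other settings. The median ratio of the 47 genes was −0.023 with quantile normalization and −0.027 to −0.018 as each hybrid was left out. The cause of these shifts was not tested beyond the smaller number of libraries.

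Named genes whose sign changed as a parent was left out were *GAR1* (−0.19 to 0.11), *MAK5* (−0.41 to 0.47), *NOP2* (−0.12 to 0.039), *DBP9* (−0.51 to 0.086), *SPB4* (−0.28 to 0.057), *NOP1* (−0.46 to 0.21) and *UTP6* (−0.12 to 0.54), none of them past the test in the parents. As a hybrid was left out, allelic ratios changed sign for *NOP58* (−1.35 to 0.054), *NHP2* (−0.099 to 0.065), *NOP53* (−0.0051 to 0.065), *NOP56* (−0.00047 to 0.11), *NOP13* (−0.022 to 0.030) and *UTP10* (−0.027 to 0.029), none of them past the allelic test, paired or not. Quantile normalization turned *NOP13* to −0.023 and *UTP10* to −0.0047 between alleles. With values that keep no depth and 1 culture per strain, differences of this size cannot be told apart from variation between cultures.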
